A study of Mus musculus with 4 samples.

Results

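The 10 genes described here encode the transcriptional core of the Hippo pathway and proteins that hold it in check, namely *Yap1*, *Wwtr1*, *Tead1*, *Tead2*, *Tead3*, *Tead4*, *Lats1*, *Amot*, *Amotl1* and *Amotl2*. They were chosen by name from a table of 55385 gene IDs, and all 10 were found and passed the filter on low values. RNA was measured in lymphatic endothelial cells (LECs), sorted by flow cytometry (CD45- PDPN+ CD31+) from E13.5 mouse embryos after removal of the tail, the limbs, the organs inside the trunk and the part of the head over the tongue. There were 2 libraries of *Osr1* controls, which are *Osr1* +/+ and *Osr1* GCE/+ embryos by the paper's methods but plainly wild type by the sample labels. Another 2 libraries were labelled *Osr1* GCE/GCE, or *Osr1* knockout. GCE is a reporter allele at *Osr1*, a transcription factor gene of mesenchymal cells, carried by every cell of the embryo, by LECs and by the tissue around them alike. Each library pooled the LECs of 8 to 10 embryos, so the spread between replicates is a spread between pools, the number of each control genotype in a pool is not given, and the sources do not say whether the pools came from separate litters.

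In the Hippo pathway the kinases LATS1 and LATS2, activated by MST1 and MST2, phosphorylate the coactivators YAP and TAZ (encoded by *Yap1* and *Wwtr1*), which are then kept in the cytoplasm or degraded. Unphosphorylated YAP and TAZ enter the nucleus and act through the DNA-binding TEAD proteins, which recognise the sequence GGAATG. Angiomotins are actin- and junction-associated proteins that bind YAP and TAZ and also promote LATS activity, and angiomotin itself is known for its part in endothelial migration. In mouse LECs, YAP and TAZ are known to restrain the lymphatic programme and to be required for normal lymphatic plexus and valve formation. The activity of the pathway is set largely by phosphorylation and localisation of proteins, neither of which is measured by RNA.

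RefSeq promoter windows, of 250 bases before to 50 bases from a start site on GRCm38.p6, were found for 8 of the 10 genes, 11 windows in all, but not for *Tead1* and *Tead4*. GGAATG or its reverse complement CATTCC was present in 6 of these windows, belonging to 4 genes, and in 14.66% of all 32817 windows of this length. The 2 windows of *Wwtr1* overlap and hold the same match, so that site counts 2 times among the 6. The following windows are shown because they hold the letters that the TEAD proteins encoded by this gene group recognise, with each match in capitals, on the strand of the gene. *Yap1* and *Wwtr1* are given at chr9:8004547-8004846 and chr3:57575861-57576160, *Tead3* at chr17:28350551-28350850, which is the window with the most matches, and *Amotl2* at chr9:102717554-102717853.
Yap1: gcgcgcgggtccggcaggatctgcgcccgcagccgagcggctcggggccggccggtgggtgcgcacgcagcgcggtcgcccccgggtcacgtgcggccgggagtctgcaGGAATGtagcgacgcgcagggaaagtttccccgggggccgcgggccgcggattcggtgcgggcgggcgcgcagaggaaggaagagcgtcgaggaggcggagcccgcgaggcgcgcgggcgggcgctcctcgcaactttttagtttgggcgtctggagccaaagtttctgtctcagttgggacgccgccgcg
Wwtr1: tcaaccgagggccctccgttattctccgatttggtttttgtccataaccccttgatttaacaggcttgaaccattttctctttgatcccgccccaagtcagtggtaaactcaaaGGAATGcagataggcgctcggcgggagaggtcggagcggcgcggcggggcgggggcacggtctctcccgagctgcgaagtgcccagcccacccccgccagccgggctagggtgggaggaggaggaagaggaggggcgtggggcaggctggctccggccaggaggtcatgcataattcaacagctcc
Tead3: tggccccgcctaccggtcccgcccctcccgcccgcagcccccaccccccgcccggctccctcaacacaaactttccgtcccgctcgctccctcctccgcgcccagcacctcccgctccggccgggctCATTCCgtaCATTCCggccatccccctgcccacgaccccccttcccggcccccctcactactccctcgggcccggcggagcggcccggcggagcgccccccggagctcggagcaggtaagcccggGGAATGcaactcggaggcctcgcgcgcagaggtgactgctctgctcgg
Amotl2: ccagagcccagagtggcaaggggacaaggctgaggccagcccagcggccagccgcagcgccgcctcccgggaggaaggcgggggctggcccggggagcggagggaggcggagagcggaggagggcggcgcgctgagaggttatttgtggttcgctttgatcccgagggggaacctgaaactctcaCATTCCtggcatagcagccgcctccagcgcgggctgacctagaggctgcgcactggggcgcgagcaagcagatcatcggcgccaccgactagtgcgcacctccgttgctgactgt
The *Tead3* window holds 3 matches, 2 as CATTCC and 1 as GGAATG, and the other windows shown hold 1 each, as GGAATG in *Yap1* and *Wwtr1* and as CATTCC in *Amotl2*. The windows of *Tead2*, *Lats1*, *Amot* and *Amotl1* hold none. The start sites of the *Amot* and *Amotl1* windows lie 17542 and 30056 bases inside the gene as GENCODE annotates it, and those of the *Amotl2* and *Tead3* windows shown lie 1132 and 217 bases inside, so these 4 windows stand for internal start sites. A match describes the letters only and is no evidence of binding.

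The libraries held 31586765 to 53438492 reads in genes. *Osr1*, the targeted gene, went against the knockout label, with 32.8 and 30.4 normalized counts, or reads over the library's size factor, in the controls and 168 and 303 in libraries labelled *Osr1* GCE/GCE (2.80 on the log2 scale, adjusted p = 0.0262 from limma), and counts over the gene do not separate GCE transcripts from intact ones. The sorted cells held high levels of LEC genes, with a summed level of the 8 LEC markers of 2159 and 2962 TPM (a level per length, scaled to the same total in every library) in the controls and of 3864 and 3648 TPM in libraries labelled *Osr1* GCE/GCE, where 4 of the 8 rose. Markers of other cells were present and moved with the groups, and each list's summed TPM ranged in the controls and then in the other group from 2502 to 3074 and 1542 to 1810 for 11 fibroblast genes (4 fell), from 266 to 463 and 165 to 170 for 6 mural genes (2 fell), from 190 to 203 and 91.8 to 96.2 for 6 skeletal muscle genes (3 fell) and from 678 to 1039 and 363 to 416 for 6 germ cell genes (3 fell). Of the neural, epithelial, and macrophage and blood markers, 6 each, limma and edgeR called 0, and DESeq2 called 1, 2 and 0 lower. Below 0 lay 6, 6 and 4 of them, with median log2 fold changes of -0.56, -0.65 and -0.15. An unadjusted p under 0.05 in limma was reached by 5, 3 and 0, beside 21.4% of all tested genes. Summed TPM was 215 and 166 in the controls against 107 and 140 in the other group for the neural list. For the epithelial list it was 240 and 197 against 81.7 and 200, which overlapped. Of the 8 blood endothelial markers only *Kdr* was called, and it rose. Of these 8 markers 5 lay below 0, with a median of -0.06, beside 52.8% and -0.02 for all tested genes. Their log2 fold changes ranged from -0.96 (*Flt1*, not called) to 0.55 (*Kdr*). Besides *Kdr*, *Cdh5* (0.37) and *Pecam1* (0.23) lay above 0, both without a call, and *Nrp1* was at -0.68 without a call. *Pecam1* encodes CD31, by which the LECs were sorted, so the median of this list does not stand for blood endothelial cells alone. None of the markers of any list was at 0 in any library. Beside these marker counts, 1.75% of all tested genes fell and 1.13% rose. The higher mural sum of the controls, 463 TPM, was that of replicate 1, which also had the lower LEC sum, 2159 TPM. The part of cells other than LECs in the results on the 10 genes was not tested. Fewer cells of a type cannot be told apart from less RNA per cell.

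All 10 genes lay above the median level of the genes tested, and per length *Wwtr1* was the highest of them and *Tead3* and *Tead4* the lowest. Mean levels over the 4 libraries were 225 ± 25.0 TPM (SD, n = 4 here and below) for *Wwtr1*, 161 ± 14.4 for *Tead2*, 150 ± 19.1 for *Amotl1*, 112 ± 14.3 for *Amotl2*, 91.3 ± 5.8 for *Yap1* and 86.9 ± 18.8 TPM for *Amot*. *Tead1* followed at 59.4 ± 5.3 TPM, *Lats1* at 56.9 ± 3.7, *Tead4* at 16.4 ± 3.6 and *Tead3* at 13.1 ± 3.7 TPM, whereas the median of all tested genes was 10.9 TPM. *Wwtr1* lay above *Tead2* without overlap of the libraries, as *Amotl1* did above *Amotl2* and *Lats1* above *Tead4*. The other neighbours in this order overlapped, although *Tead2* exceeded *Amotl1* in every library. Per length, *Tead4* lay below *Tead3* in both control libraries and above it in both others. *Yap1* likewise lay below *Amot* in both control libraries and above it in both others. In counts not divided by length, *Tead4* stayed below *Tead3* in replicate 2 labelled *Osr1* GCE/GCE (702 and 707). *Yap1* in such counts already exceeded *Amot* in control replicate 2 (8276 and 7933).

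**Figure D1:**
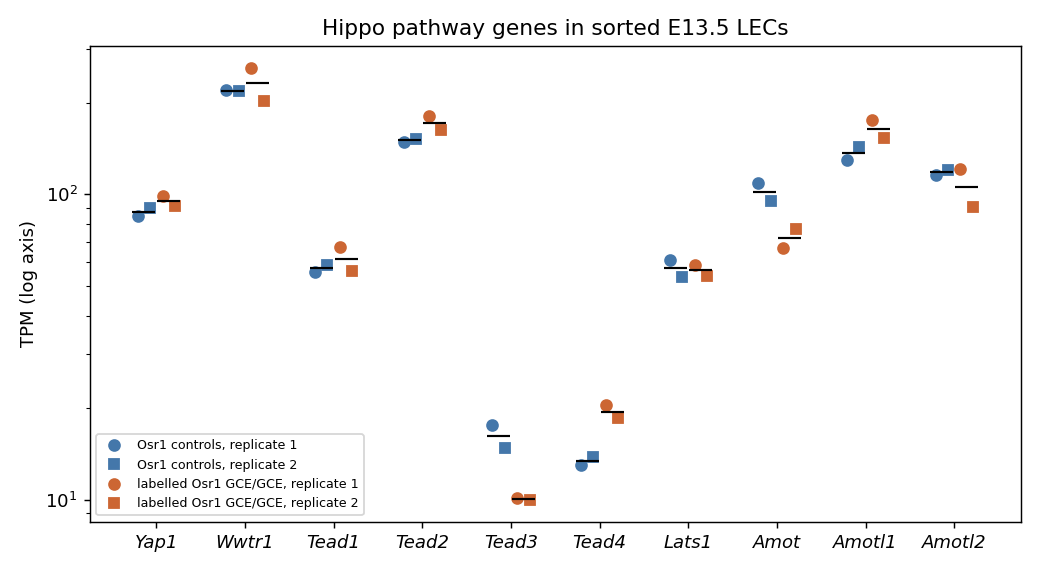
Level of each gene in TPM on a log axis in the 4 LEC libraries, with circles for replicate 1, squares for replicate 2 and a black line at each group's mean. *Tead3* lies at 17.5 and 14.8 TPM in the controls and at 10.1 and 9.96 TPM in libraries labelled *Osr1* GCE/GCE, while *Tead4* lies at 13.0 and 13.8 TPM and then at 20.4 and 18.5 TPM.

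The comparison of the labelled groups asks how LECs differ between *Osr1* controls and embryos lacking functional *Osr1*. In the libraries labelled *Osr1* GCE/GCE, 1 of the 10 genes fell, *Tead3*, and 1 rose, *Tead4*, while 8 did not pass the test. Of all 19479 genes tested 2.89% were called, 1.75% lower and 1.13% higher, or 341 and 221 genes, against 480 and 197 when libraries were scaled by their totals. Calls needed an adjusted p under 0.05, a mean over 1 TPM and a log2 fold change of 0.3 or more in size, from limma on log2(normalized count + 1) and Benjamini-Hochberg adjustment over all tested genes. The 2 groups did not overlap for 7 of the 10 genes, 5 of them higher and 2 lower, beside 53.6% of all tested genes, 24.7% higher and 28.9% lower. The median log2 fold change was 0.16 over the 10 genes and -0.02 over all genes tested. A permutation test of a single gene in 2 against 2 libraries cannot give a two-sided p under 0.33, so all calls rest on a spread that limma moderates over genes.

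**Figure D2:**
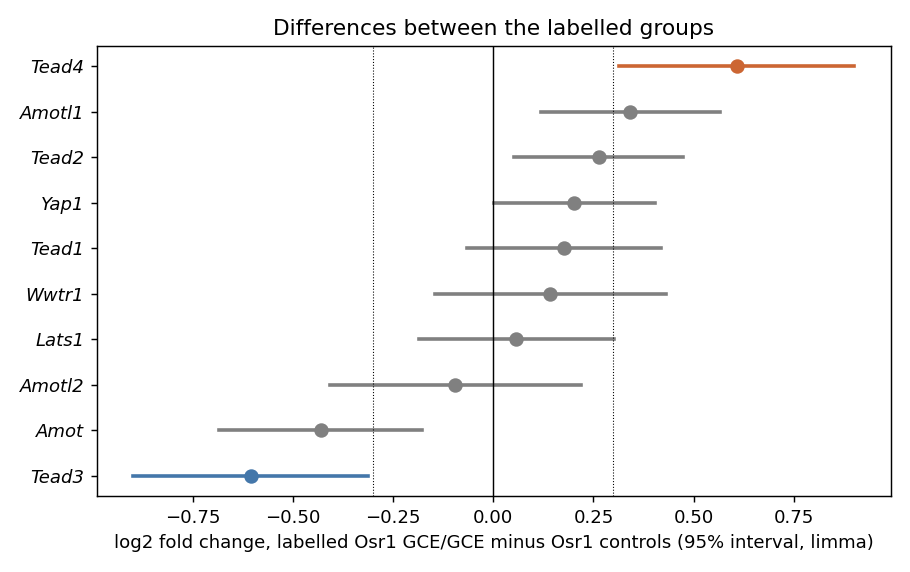
Log2 fold change of each gene, libraries labelled *Osr1* GCE/GCE minus *Osr1* controls, with its 95% interval from limma. Blue marks the gene that fell and orange the gene that rose, grey those not called, and dotted lines the fold threshold of 0.3. Only the intervals of *Tead3* (-0.90 to -0.31) and *Tead4* (0.31 to 0.90) lie wholly beyond the threshold.

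YAP and TAZ share the binding of TEAD proteins, and both genes were abundant in these cells. *Yap1* (ENSMUSG00000053110.13, chromosome 9 of mm10 from 7931999 to 8004596, minus strand) had 7983 and 8276 normalized counts in the controls and 9727 and 8991 in libraries labelled *Osr1* GCE/GCE. Both of the latter lay above both controls, but the difference did not pass the test (log2 fold change 0.20, standard error 0.09, 95% interval 0.00 to 0.40, adjusted p = 0.232). An annotated transcript on the opposite strand shares 116 exonic bases with *Yap1*, and the library kit does not mark strand. *Wwtr1* (ENSMUSG00000027803.14, chromosome 3 from 57455649 to 57575910) stood at 10693 and 10377 normalized counts in the controls and 13246 and 10202 in the other group. The groups overlapped, since replicate 2 labelled *Osr1* GCE/GCE was the lowest of all libraries and replicate 1 the highest (0.14, 95% interval -0.15 to 0.43, adjusted p = 0.558). Without that replicate 1 the log2 fold change of *Wwtr1* was -0.05. In every library TAZ transcripts outnumbered those of YAP per length, by 2.59 and 2.43 times in the controls and by 2.64 and 2.20 times in libraries labelled *Osr1* GCE/GCE. *Wwtr1* thus held 71.5% ± 0.9 (SD, n = 2) and 70.6% ± 2.7 of the summed TPM of both genes in the controls and the other group, and the libraries of both groups overlapped.

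The 4 TEAD genes encode the DNA-binding partners of YAP and TAZ, and they differed in level and in direction. *Tead2*, the TEAD gene known for its expression in early embryos, was the most abundant per length, with 7259 and 7247 normalized counts in the controls and 9214 and 8223 in libraries labelled *Osr1* GCE/GCE (chromosome 7 from 45215753 to 45233644). It was higher in both of the latter, without a call (log2 fold change 0.26, standard error 0.09, 95% interval 0.05 to 0.47, adjusted p = 0.150). *Tead2* shares 13 exonic bases with *Cd37* on the opposite strand. *Tead1*, which is required for heart development in the mouse, had 7711 and 7907 against 9698 and 8034 normalized counts (chromosome 7 from 112679318 to 112906807). The groups did not overlap, though replicate 2 labelled *Osr1* GCE/GCE stood close to the controls (0.18, 95% interval -0.07 to 0.42, adjusted p = 0.381).

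*Tead3* (ENSMUSG00000002249.21, chromosome 17 from 28331671 to 28350817), known for its expression in the placenta, fell. It had 1197 and 986 normalized counts in the controls and 720 and 707 in libraries labelled *Osr1* GCE/GCE. Every library labelled *Osr1* GCE/GCE was below every control, and the fitted level was 0.657 times that of the controls (log2 fold change -0.61, standard error 0.13, adjusted p = 0.0476). Of the promoter windows of this gene, the one shown above holds 3 matches to the TEAD sequence and the others hold 0 and 1, which is no evidence of binding. *Tead4* (ENSMUSG00000030353.15, chromosome 6 from 128224288 to 128300823), which is required for the trophectoderm of the blastocyst, rose. Its normalized counts were 476 and 494 in the controls and 780 and 702 in libraries labelled *Osr1* GCE/GCE, with no overlap, or 1.52 times the control level (log2 fold change 0.61, standard error 0.13, adjusted p = 0.0472). Both genes rested on fewer reads than the other 8, from 571 to 1681 for *Tead3* and from 472 to 718 for *Tead4* per library.

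Both calls lay near the threshold. *Tead3* lost its call without *Osr1* controls replicate 1 (log2 fold change -0.47, adjusted p = 0.0671), and after dropping replicate 1 or 2 labelled *Osr1* GCE/GCE (adjusted p = 0.224 and 0.153), and *Tead4* after dropping either of those of the latter group (adjusted p = 0.312 and 0.121). On reads recovered from the normalized counts, edgeR called neither (adjusted p = 0.0681 and 0.0611) and DESeq2, the study's own tool, called both (0.00535 and 0.00323). Over 18 alternatives *Tead3* ranged from -0.75 to -0.47 and was called in 10, and *Tead4* ranged from 0.53 to 0.68 and was called in 11. The lists of fibroblast, mural, muscle and germ cell markers were lower and LEC markers higher in the same libraries as given above. Neural and epithelial markers also lay below 0. The part of all these lists in the differences of *Tead3* and *Tead4* was not tested.

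Within a library the ratio of *Tead4* to *Tead3* does not depend on the scaling of libraries. Per length it was 0.743 and 0.935 in the controls and 2.02 and 1.85 in libraries labelled *Osr1* GCE/GCE, a difference of 1.22 on the log2 scale (exact permutation test, two-sided p = 0.33, the smallest possible here). The groups did not overlap, which follows from the opposite, non-overlapping values of both genes given above and is no further test. *Tead3* made up 6.81% ± 0.90 (SD, n = 2) of the summed TEAD level in the controls and 3.83% ± 0.30 in the other group, and *Tead4* 5.65% ± 0.17 and 7.40% ± 0.12. *Tead2* held 63.4% ± 0.2 and 65.4% ± 0.6, and *Tead1* 24.1% ± 0.5 and 23.4% ± 1.0. *Tead2* and *Tead1* thus provided most TEAD transcripts in every library. The summed TEAD level was 235 and 240 TPM in the controls and 279 and 247 TPM in libraries labelled *Osr1* GCE/GCE.

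**Figure D3:**
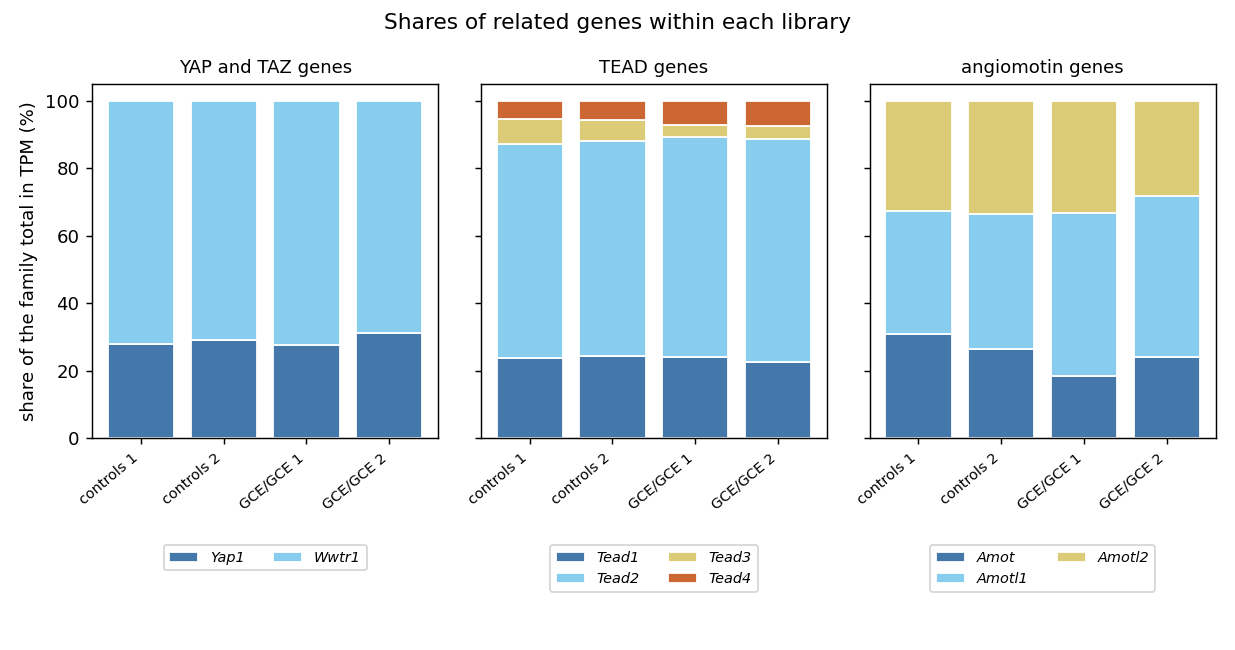
Share of each gene in the summed TPM of its family, in percent, one bar per library for the coactivator, TEAD and angiomotin genes. *Amotl1* holds 36.6% and 39.8% in the controls and 48.2% and 47.7% in libraries labelled *Osr1* GCE/GCE, while the *Yap1* and *Wwtr1* shares of both groups overlap.

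*Tead4* had the smallest adjusted p of the 10. Of the genes most like it in profile, measured as the root mean square distance of centred log2 values over the 4 libraries, the nearest 3 were *Klhl36* (0.02), *Lmo2* (0.02) and *Gmfg* (0.03). *Lmo2*, which encodes a transcriptional adaptor of endothelial and blood cells, rose (log2 fold change 0.61, adjusted p = 0.0317), as did *Gmfg*, a regulator of actin branching (0.56, adjusted p = 0.0434). *Klhl36* was at 0.64 without a call (adjusted p = 0.0683). These 3 genes were picked for their likeness to *Tead4*, so their higher values follow from the choice. Likeness over 4 libraries is a description only.

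*Lats1*, the kinase gene, showed the smallest difference of the 10. It had 4542 and 3874 normalized counts in the controls and 4567 and 4175 in libraries labelled *Osr1* GCE/GCE (ENSMUSG00000040021.13, chromosome 10 from 7681214 to 7716460). The groups overlapped (log2 fold change 0.06, standard error 0.11, 95% interval -0.19 to 0.30, adjusted p = 0.805), and with libraries scaled by their totals the value was -0.014. *Lats2*, its paralog and a gene outside the 10, had 1669 and 1769 against 1898 and 1807 normalized counts (0.11, adjusted p = 0.563). Per length *Lats1* exceeded *Lats2* by 2.09 to 2.60 times over the 4 libraries.

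The 3 angiomotin genes, whose products bind YAP and TAZ at junctions and actin, did not share a direction, and none of them passed the test. *Amot* (ENSMUSG00000041688.16, chromosome X from 145446425 to 145505181) stood at 9334 and 7933 normalized counts in the controls and 5978 and 6822 in libraries labelled *Osr1* GCE/GCE. Both of the latter were below both controls, but the difference did not pass the adjusted test (log2 fold change -0.43, standard error 0.11, 95% interval -0.68 to -0.18, adjusted p = 0.0749). *Amotl1* (ENSMUSG00000013076.17, chromosome 9 from 14541966 to 14645056) showed the opposite order, with 13308 and 14259 normalized counts in the controls and 18725 and 16278 in the other group. Again there was no overlap and no call (0.34, standard error 0.10, 95% interval 0.12 to 0.57, adjusted p = 0.0972). *Amotl2* (ENSMUSG00000032531.15, chromosome 9 from 102716672 to 102733418), which is also a known target of YAP, had 7412 and 7520 against 8099 and 6038 normalized counts. Replicate 1 labelled *Osr1* GCE/GCE was its highest library and replicate 2 its lowest (-0.09, 95% interval -0.41 to 0.22, adjusted p = 0.736), and without that replicate 2 the log2 fold change was 0.12.

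The calls of *Amot* and *Amotl1* depended on the test. DESeq2 called *Amot* lower (adjusted p = 0.0230) and *Amotl1* higher (0.0182), edgeR called neither (0.0976 and 0.0917), and *Amot* was called without *Osr1* controls replicate 2 (-0.55, adjusted p = 0.0275), whereas leaving out any 1 library did not bring a call of *Amotl1* (adjusted p from 0.0771 to 0.383). DESeq2 called 7.73% and edgeR 1.46% of the same genes.

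Per length, *Amotl1* exceeded *Amot* 1.19 and 1.5 times in the controls and 2.62 and 1.99 times in libraries labelled *Osr1* GCE/GCE, without overlap. The difference was 0.77 on the log2 scale (exact permutation test, two-sided p = 0.33, the smallest possible). This separation follows from the opposite, non-overlapping values of both genes and is no further test. *Amotl1* held 38.2% ± 2.3 (SD, n = 2) of the summed angiomotin level in the controls and 48.0% ± 0.3 in the other group, *Amot* 28.7% ± 3.0 and 21.2% ± 3.9, and *Amotl2* 33.1% ± 0.7 and 30.8% ± 3.6. The sum itself was 355 and 358 TPM in the controls and 363 and 320 TPM in libraries labelled *Osr1* GCE/GCE, which overlapped.

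Other genes of the pathway were described by 4 lists. Of 18 Hippo kinases and scaffolds, limma and edgeR called 0, DESeq2 called 1 higher and 0 lower, and 6 had an unadjusted p under 0.05, beside 21.4% of all tested genes. The median log2 fold change was 0.09, beside -0.02 over all genes tested. *Nf2*, which encodes the scaffold merlin, had 5377 and 5539 normalized counts in the controls and 5941 and 5495 in libraries labelled *Osr1* GCE/GCE (a log2 fold change of 0.07, adjusted p = 0.717). The most abundant members were *Map4k4*, a kinase that acts in parallel to MST1 and MST2 (0.10, adjusted p = 0.620), *Mob1a*, the LATS coactivator (0.20, adjusted p = 0.216), and *Dchs1*, a protocadherin (0.08, adjusted p = 0.677).

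Of 14 cofactors and brakes of YAP, TAZ and TEAD, 1 rose, 0 fell and 13 missed the test. Of all tested genes, 1.13% rose and 1.75% fell. The median was 0.04, beside -0.02 over all genes tested. An unadjusted p under 0.05 in limma was reached by 5 of the 14, beside 21.4% of all tested genes. The gene that rose was *Ptpn14*, whose phosphatase binds YAP and holds it in the cytoplasm and which is itself a YAP target. It is known from human disease for its link to lymphedema. *Ptpn14* had 6117 and 6653 normalized counts in the controls and 9450 and 8785 in libraries labelled *Osr1* GCE/GCE (a log2 fold change of 0.51 with standard error 0.09, adjusted p = 0.0362). It kept its call with edgeR (adjusted p = 0.0455) and lost it without *Osr1* controls replicate 1 (0.0649) and when replicate 1 or 2 labelled *Osr1* GCE/GCE was dropped (0.170 and 0.0551). *Ywhaz*, which encodes a 14-3-3 protein that binds phosphorylated YAP, was the most abundant of the list (0.15, adjusted p = 0.343), followed by the kinase genes *Csnk1d* (0.06, adjusted p = 0.763) and *Csnk1e* (0.02, adjusted p = 0.946).

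Of 15 angiomotin partners, 1 fell, 0 rose and 14 did not pass, where 1.75% of all tested genes fell and 1.13% rose. The median was 0.12, beside -0.02 over all genes tested. An unadjusted p under 0.05 in limma was reached by 4 of the 15, beside 21.4% of all tested genes. *Kank1*, an adaptor of adhesions and the cell cortex, fell, with 1321 and 1272 normalized counts in the controls and 732 and 785 in libraries labelled *Osr1* GCE/GCE (a log2 fold change of -0.77 with standard error 0.11, adjusted p = 0.0276). The call ended without replicate 1 or 2 labelled *Osr1* GCE/GCE (adjusted p = 0.150 and 0.0547). Its relative *Kank3* had 2321 and 2130 normalized counts in the controls and 3214 and 2676 in the other group, so the groups did not overlap in the direction opposite to *Kank1* (0.40, adjusted p = 0.0948). *Flnc*, which encodes an actin crosslinker known from striated muscle, had 7082 and 8034 against 6186 and 5568 normalized counts (-0.36, adjusted p = 0.0914). DESeq2 called *Kank3* higher (adjusted p = 0.0247) and *Flnc* lower (adjusted p = 0.0363), and edgeR called neither (0.0931 and 0.0934). The study picked *Kank1*, *Kank3* and *Flnc*, and also *Amot* described above, from these libraries, so these genes are not independent of its results. The most abundant partners were *Nedd4*, a ubiquitin ligase of angiomotins (0.08, adjusted p = 0.625), *Tnks2*, a tankyrase (0.10, adjusted p = 0.551), and *Lin7c*, a polarity scaffold (0.23, adjusted p = 0.162).

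Of 21 target genes of YAP and TAZ, 3 fell, 1 rose and 17 did not pass the test, where 1.75% of all tested genes fell and 1.13% rose. The median log2 fold change was -0.34, with 15 of the 21 below 0, beside -0.02 and 52.8% for all tested genes. An unadjusted p under 0.05 in limma was reached by 12 of the 21, beside 21.4% of all tested genes. *Arhgef17* fell from 3955 and 3177 to 2212 and 2382 normalized counts (-0.63, adjusted p = 0.0413), *Igfbp3*, which encodes an IGF-binding protein, fell from 8693 and 7030 to 5531 and 4929 (-0.58, adjusted p = 0.0460), and *Fjx1*, the gene of a Golgi kinase related to fly four-jointed, fell from 759 and 693 to 484 and 460 (-0.62, adjusted p = 0.0458). edgeR called none of these 3, *Igfbp3* and *Fjx1* also lost their calls without control replicate 1 (adjusted p = 0.0789 and 0.0614), and *Arhgef17*, *Igfbp3* and *Fjx1* lost theirs without replicate 1 (0.198, 0.151 and 0.214) or replicate 2 (0.0826, 0.139 and 0.166) labelled *Osr1* GCE/GCE. The member that rose was *Ptpn14*, which also stands among the brakes above, as *Lats2* stands among both the targets and the kinases. With edgeR 0 target genes fell and 1 rose, beside 0.708% and 0.75% of all tested genes, and with DESeq2 6 fell and 3 rose, beside 4.32% and 3.4%. The count that fell was 1 and 9 when control replicate 1 or 2 was dropped, beside 3.06% and 5.37% of all tested genes, and 1 and 0 when replicate 1 or 2 labelled *Osr1* GCE/GCE was, beside 0.0616% and 0.806%.

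**Figure D4:**
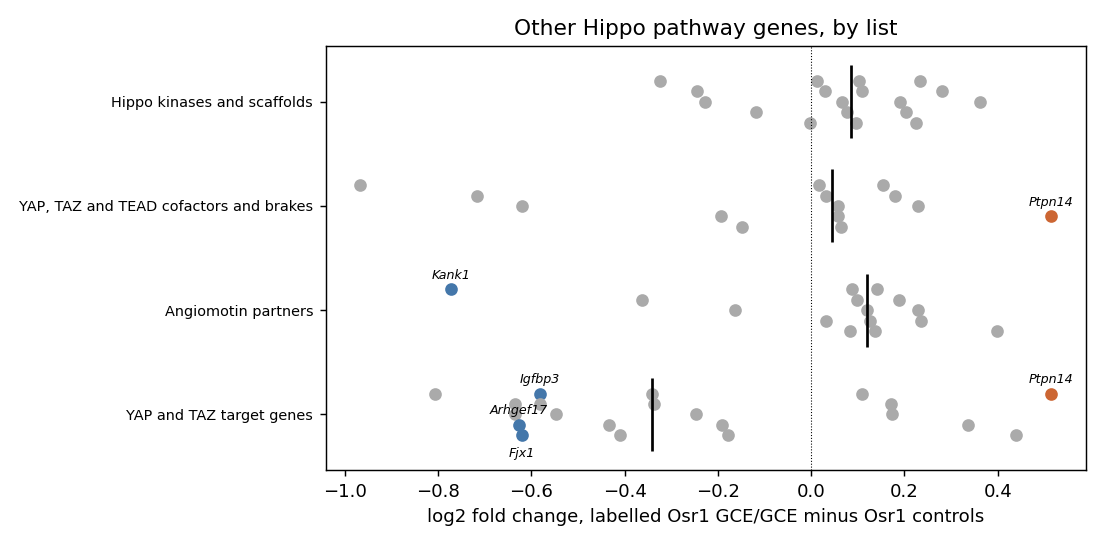
Log2 fold change of each gene of the 4 pathway lists, libraries labelled *Osr1* GCE/GCE minus *Osr1* controls, with a black line at each list's median. Blue genes fell, orange genes rose and grey genes were not called. The target genes of YAP and TAZ have a median of -0.34, and the other lists have medians between 0.04 and 0.12.

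The targets used most often as readouts did not pass the test. *Ccn1*, which encodes the matrix protein CYR61, had 14106 and 16212 normalized counts in the controls and 13989 and 11608 in libraries labelled *Osr1* GCE/GCE (a log2 fold change of -0.25, adjusted p = 0.267). Both of the latter lay below both controls, replicate 1 only just. *Ccn2*, which encodes CTGF, had 3325 and 2964 against 3421 and 1581 normalized counts. Its libraries labelled *Osr1* GCE/GCE differed from each other more than from the controls (-0.43, standard error 0.46, adjusted p = 0.664), and without replicate 1 labelled *Osr1* GCE/GCE it was called lower (-0.99, adjusted p = 0.0397). Without replicate 2 of that group it was at 0.12. *Ankrd1* was low, with 86.9 and 60.7 against 84.7 and 79.3 normalized counts (0.17, adjusted p = 0.764), and *Asap1*, an Arf GTPase-activating protein gene, was at 0.17 (adjusted p = 0.347). Many of these target genes are also known from fibroblasts and mural cells, whose markers were lower in the same libraries as given above, and the part of those cells was not tested.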

How the data were processed

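RNA of sorted LECs was measured in 4 libraries, 2 per group, grouped by sample title. Per the labels and the paper's methods, the authors prepared polyA libraries with a TruSeq V2 kit, aligned reads to mm10 with STAR and counted them per gene with featureCounts. The signal values they deposited are these counts divided by DESeq2 size factors. Tool versions: not given in the sources used here. All gene IDs number 55385, of which 55144 were found in GENCODE release 21 for mouse, the source of symbols, coordinates and union exon lengths for TPM. With the smallest non-zero value of a library as 1 read, 100.0% of values were whole within 0.001 reads, with size factors of 1.40, 0.955, 0.921 and 0.807.

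Groups were compared with limma 3.58.1 (R 4.3.3, eBayes with trend and robust options) on log2(normalized count + 1), after leaving out genes with a mean under 10 (19479 stayed), which understates changes of low genes. The thresholds for calls follow the study's methods. edgeR 4.0.16 and DESeq2 1.42.0 were run on the recovered reads as alternatives and called 284 and 1505 genes, against 562 for limma, and all were tested on simulated data first. The members and gene lists were chosen with earlier results of these data known. Named from each list were its called genes, its 3 most abundant others and 8 genes of interest, and no set test was run. The replicate numbers come from the titles, and no source says that they mark shared litters or days.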

Additional observations from a re-analysis of the deposited data

How the results depend on the processing

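No call held under every alternative, since limma made none without its trend and robust options. Among the 10 genes, the counts that fell and rose were 0 and 0 with TMM scaling, with edgeR, without the trend and robust options and with the replicate block, 2 and 2 with DESeq2, without a filter on low values, with an adjusted p under 0.1 and with the crossed block, 1 and 0 with library totals, and 0 and 1 with a mean of at least 50. With libraries left out, 0 to 2 fell and 0 to 1 rose. *Tead3* lost its call with TMM scaling (-0.63), edgeR (-0.61), no trend and robust options (-0.61), a mean of at least 50 (-0.61) and the replicate block (-0.61), and with libraries left out it ranged from -0.75 to -0.47. *Tead4* lost its call with TMM scaling (0.59), library totals (0.54), edgeR (0.62), no trend and robust options (0.61) and the replicate block (0.61), and with libraries left out it ranged from 0.53 to 0.68. *Amot* and *Amotl1* gained calls with DESeq2 (-0.42 and 0.36), and without a filter, with the crossed block and with an adjusted p under 0.1 (-0.43 and 0.34 in each), and *Amot* ranged from -0.55 to -0.31 with libraries left out. Pseudocounts of 0.5 and 5 and calls without a fold or a TPM threshold left both counts at 1.

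Of the kinases and scaffolds, 1 fell with library totals, and 1 rose with DESeq2, the crossed block and an adjusted p under 0.1 (0 to 1 rose with libraries left out). Of the cofactors and brakes, 1 fell with library totals, DESeq2, no filter and the crossed block and 2 with an adjusted p under 0.1, and 0 rose without the trend and robust options and with the replicate block (0 to 1 fell and 0 to 1 rose with libraries left out). Of the angiomotin partners, 2 fell with library totals, DESeq2, no filter, the crossed block and an adjusted p under 0.1 and 0 without the trend and robust options, and 1 rose with DESeq2 and an adjusted p under 0.1 (0 to 1 fell with libraries left out). Of the target genes, 0 fell with edgeR, without the trend and robust options and with the replicate block and 6 with DESeq2 and the crossed block, and 0 rose without the trend and robust options and with the replicate block, 2 without a filter and 3 with DESeq2, the crossed block and an adjusted p under 0.1 (0 to 9 fell and 0 to 2 rose with libraries left out).

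Over all genes 341 fell and 221 rose. These counts were 138 and 146 with edgeR, 842 and 663 with DESeq2, 0 and 0 without the trend and robust options, 695 and 425 without a filter, 916 and 572 with an adjusted p under 0.1, 12 to 1049 and 13 to 378 with libraries left out, 480 and 197 with library totals, 96 and 29 with the replicate block and 766 and 516 with the crossed block. Same-numbered libraries deviated from their group means with a correlation of -0.12, so the numbers were not taken to pair them, and the crossed block was added after seeing the data.

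Values that changed sign were those of genes without a call, which were, with library totals, *Lats1* (-0.014), *Nf2* (-0.0060), *Csnk1d* (-0.015) and *Csnk1e* (-0.056), with TMM scaling *Csnk1e* (-0.0058), and with single libraries left out *Lats1* (-0.057 to 0.17), *Wwtr1* (-0.046 to 0.33), *Amotl2* (-0.31 to 0.12), *Ankrd1* (-0.084 to 0.43), *Map4k4* (-0.017 to 0.21), *Csnk1d* (-0.019 to 0.13), *Csnk1e* (-0.082 to 0.11) and *Ccn2* (-0.99 to 0.12). The shares in the family totals changed sign without single libraries for *Yap1* (-1.003 to 2.78 percentage points), *Wwtr1* (-2.78 to 1.003), *Tead1* (-1.42 to 0.016) and *Amotl2* (-4.80 to 0.24). The *Tead4* share was higher by 0.981 points when counts were not divided by length, against 1.75. The causes of these changes were not tested, except that fits with a library left out hold 3 libraries. Each of the 10 genes has at least 472 reads in every library.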
